A study of Mus musculus with 24 samples.

Results

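Npas4 encodes a DNA-binding regulator of neurons with a basic helix-loop-helix domain followed by PAS domains. It was represented by 1 of the 45101 probe sets on the array, which makes it 1 of 18194 genes with a symbol of their own. All probe sets annotated to Npas4 were taken, and the single one found (1459372_at, Entrez gene 225872, on the minus strand of chromosome 19) was read on all 24 arrays. Npas4 is an activity-dependent gene: calcium entering a depolarized neuron through voltage-gated channels and NMDA receptors starts its transcription without prior protein synthesis. The protein pairs with ARNT-class partners to bind DNA and is known for shaping synapses in excitatory and inhibitory neurons of the forebrain. In both kinds of neuron it is thought to act on later genes that differ between them.

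The arrays came from cultures of C57Bl/6 mouse embryos at embryonic day 14, and the labels give 10 days in vitro for every array. Cultures were prepared either from the medial ganglionic eminence (MGE), a source of cortical interneurons, or from the cortex (CTX). Littermates were wild type (WT) or knockout (KO) for Npas4, and each combination of cell type, genotype and time had 2 arrays, called repeat 1 and repeat 2, in 12 groups. All groups, the 0 h controls included, had been silenced overnight with the sodium channel blocker TTX and the NMDA receptor blocker AP-5. The groups then differed in the time spent in 55 mM KCl, which was 0, 1 or 6 h. The structure of the knockout allele is not given in the sources used here. Nothing says that the 2 arrays of a group came from separate cultures or animals, so p-values measure only the spread between these arrays, which may be technical.

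Most markers of each cell type separated the cultures, and some did not. At 0 h in WT, 9 of 10 MGE interneuron markers were higher in MGE (34.7% of all genes were) and 7 of 9 tested cortical excitatory markers were lower (29.5%). Lhx6, a transcription factor of MGE-derived interneurons, lay at log2 12.70 to 13.09 in MGE arrays and at 8.67 to 10.02 in CTX arrays. Neurod6, a transcription factor of cortical excitatory neurons, lay at 11.97 to 12.58 in CTX arrays and at 3.38 to 3.97, far below the array median, in MGE arrays. Lhx6 was thus also above the array median in every CTX array. Dlx2 (log2 0.34 ± 0.48), an interneuron factor, Bcl11b (0.02 ± 0.16), a factor of deep-layer neurons, and Slc17a6 (-4.05 ± 1.88; adjusted p = 0.071), a vesicular glutamate transporter, did not pass. The 2 MGE WT arrays at 0 h were far apart for Dlx2, at 11.382 and 9.249, against 10.195 and 9.753 in CTX WT. Slc17a6 lay at 7.19 to 8.53, above the array median, in the 6 MGE arrays of repeat 1 and at 3.60 to 3.92 in the 6 of repeat 2, against 9.21 to 10.89 in CTX arrays. The 2 arrays of a group correlated at 0.951 (MGE WT at 0 h) to 0.992 across tested genes. In bulk cultures fewer responding cells and less RNA per cell cannot be told apart.

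The promoter, the stretch around the start of the gene, is shown first, because it is where factors such as CREB are known to act on activity-dependent genes. RefSeq (GRCm38.p6) gives 1 promoter for Npas4, the 300 bases at chr19:4989922-4990221 on the minus strand, with 250 bases before the start and 50 after it. It is printed 5′ to 3′, with capitals for each TGACG match on either strand and for TATATAA.
Npas4: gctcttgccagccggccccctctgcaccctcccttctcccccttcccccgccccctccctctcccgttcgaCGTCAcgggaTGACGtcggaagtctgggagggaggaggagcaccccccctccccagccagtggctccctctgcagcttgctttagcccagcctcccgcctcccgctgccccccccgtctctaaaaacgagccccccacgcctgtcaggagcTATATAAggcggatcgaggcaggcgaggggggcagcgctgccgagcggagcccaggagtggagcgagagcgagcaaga
TGACG, the core of the cAMP and calcium response element bound by CREB, matched at 2 places, 179 to 175 bases before the start on the opposite strand and 169 to 165 bases before it on the coding strand. Both were part of the 7-base word TGACGTC. Of 32851 promoters of this length, 3.21% held TGACGTC on either strand, and 42 (0.128%) held it at 2 or more places that did not overlap. TATATAA lay 28 to 22 bases before the start, a word found in 3.24% of the promoters. The full palindrome TGACGTCA (1.79% of promoters), a CArG box (1.63%), a MEF2 site (3.19%), TATAAA (13.6%), TCGTG (16.0%) and ACGTG (19.6%) were not matched in this window. A match describes letters only.

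In silenced cultures Npas4 was low in every group. At 0 h its intensity stood at 52.0 and 57.2 in MGE WT, 50.8 and 40.9 in MGE KO, 55.6 and 61.3 in CTX WT, and 56.6 and 55.1 in CTX KO (repeat 1, then repeat 2). All 8 arrays lay below their array median, which was 115 to 121, so whether they exceed background was not shown and any fold taken from them is approximate. MGE minus CTX in WT at 0 h was log2 -0.10 ± 0.25 (SE, n = 2 per group; 95% interval -0.63 to 0.44; limma, Benjamini-Hochberg adjusted p = 0.74). KO minus WT at 0 h was -0.26 ± 0.25 in MGE (95% interval -0.79 to 0.28; adjusted p = 0.54) and -0.06 ± 0.25 in CTX (-0.60 to 0.47; adjusted p = 1.0).

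**Figure D1:**
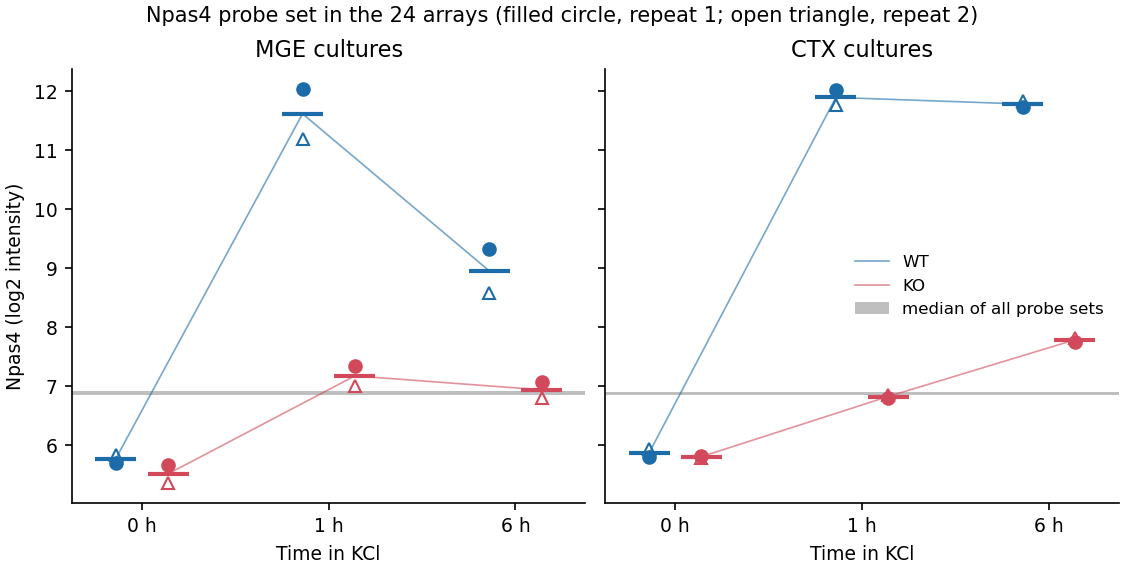
Npas4 log2 intensity (vertical axis) by time in KCl (horizontal axis) in MGE (left) and CTX cultures (right). Circles are repeat 1, triangles repeat 2, bars group means, blue WT, red KO and the grey band the medians of all probe sets: WT rises at 1 h in both panels, falls to log2 8.59 and 9.32 by 6 h in MGE and lies at 11.73 and 11.84 at 6 h in CTX.

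One hour of depolarization raised Npas4 to similar intensities in both kinds of WT culture. In MGE WT the 2 arrays read 4219 and 2355, and in CTX WT 4180.5 and 3488. The arrays of the cell types overlapped, and every 0 h array lay far below them. The rise was log2 5.85 ± 0.25 in MGE (57.8-fold, 95% interval 39.9 to 83.8; adjusted p = 3.0e-09) and 6.03 ± 0.25 in CTX (65.4-fold, 45.1 to 94.8; adjusted p = 3.0e-09). The difference between the rises was -0.18 ± 0.35 (95% interval -0.94 to 0.58; adjusted p = 0.99), and the 1 h levels differed by -0.28 ± 0.25 (-0.81 to 0.26; adjusted p = 0.37). MGE WT repeat 1, the repeat with the higher Slc17a6, lay 1.79-fold above repeat 2. The part of the cells behind that marker was not tested. Without it the 1 h level was lower in MGE by log2 -0.70 ± 0.25 (adjusted p = 0.041).

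By 6 h the cell types had parted. MGE WT arrays read 641 and 385, and CTX WT arrays 3403 and 3675. Neither MGE array reached the lower CTX array. From 1 h to 6 h Npas4 fell by log2 2.67 ± 0.25 in MGE WT, to 15.8% of its 1 h level (95% interval 10.9% to 22.8%; adjusted p = 1.6e-05), the 4th largest fall of the tested genes. In CTX WT it stood at 92.6% of its 1 h level (63.9% to 134%; log2 -0.11 ± 0.25, adjusted p = 0.80). The difference between these changes was log2 -2.56 ± 0.35 (95% interval -3.31 to -1.80; adjusted p = 0.0015), and the level at 6 h was 7.12-fold lower in MGE (log2 -2.83 ± 0.25; adjusted p = 6.9e-07). Set against the starting level in intensity, 14.2% of the 1 h rise was left at 6 h in MGE WT and 92.2% in CTX WT. MGE WT was still 9.11-fold above 0 h at 6 h (6.28 to 13.2; adjusted p = 1.9e-06).

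The 2 repeats of MGE WT gave the fall separately, at log2 -2.72 in repeat 1 and -2.61 in repeat 2. In CTX WT the same change was -0.30 and 0.08. Markers of other cells differed between the cultures and the repeats. In MGE WT the summed intensity of 8 microglial markers came to 2311 and 964 at 1 h, then 1601 and 896 at 6 h. In CTX WT it came to 1053 and 580, then 1030.2 and 854. Over all arrays it spanned 664 to 2311 in MGE and 475 to 1053 in CTX. The 6 astrocyte markers summed to 5800 to 8737 in MGE and 2779 to 6551 in CTX, and the 6 progenitor markers to 15590 to 22663 in MGE and 4804 to 14193 in CTX. The 5 oligodendrocyte markers with a probe set summed to 1079 to 1696 against 630.4 to 1240, and the 5 vascular markers to 408 to 483 against 317 to 408. Their part in the Npas4 difference was not tested.

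**Figure D2:**
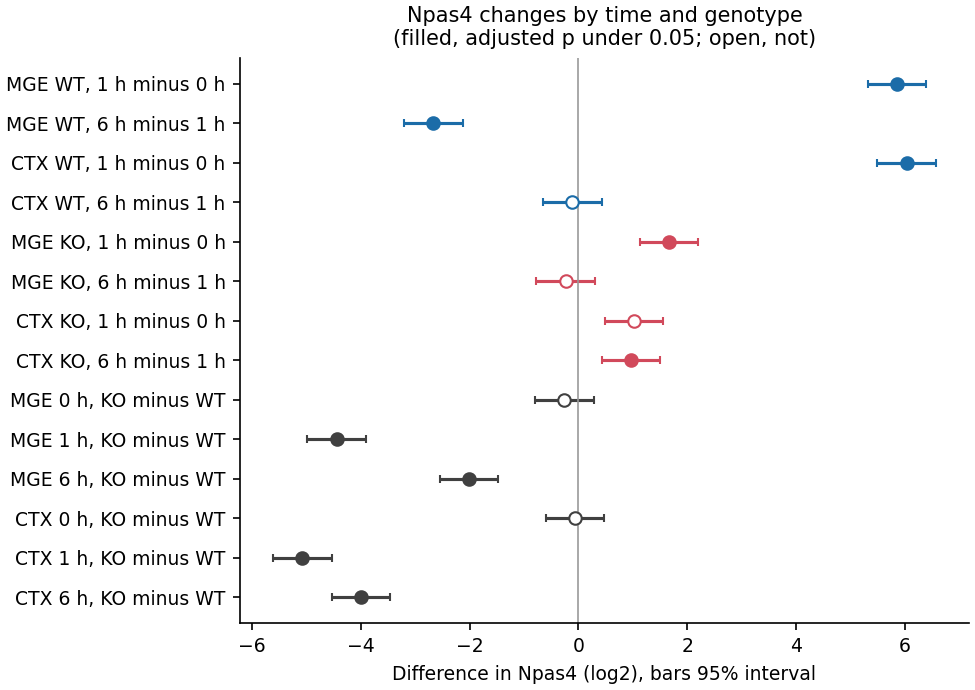
Differences in Npas4 (horizontal axis, log2) between times within a genotype (blue WT, red KO) and between genotypes at each time (grey), with 95% intervals. Filled points passed an adjusted p under 0.05: the fall of 2.67 from 1 h to 6 h in MGE WT did, and the change of -0.11 in CTX WT did not.

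In KO cultures the Npas4 signal stayed far below WT once KCl was added, and it still moved. MGE KO arrays read 163 and 128 at 1 h and 134 and 112 at 6 h. CTX KO arrays read 111 and 115 at 1 h and 216 and 225 at 6 h. Of these 8 arrays 5 lay above their array median, and all 8 lay above every 0 h array. None reached the lowest depolarized WT array, at 385. The KO level was 4.58% of WT at 1 h in MGE (95% interval 3.16% to 6.64%; log2 -4.45 ± 0.25, adjusted p = 4.2e-07) and 2.97% in CTX (log2 -5.07 ± 0.25; adjusted p = 6.7e-08). At 6 h it was 24.7% of WT in MGE (17.0% to 35.8%; log2 -2.02 ± 0.25, adjusted p = 0.0043) and 6.24% in CTX (log2 -4.00 ± 0.25; adjusted p = 1.8e-06). Npas4 was the lowest of the 12378 genes in KO minus WT at 1 h in both cell types and at 6 h in CTX, and the 2nd lowest at 6 h in MGE. The 6 h MGE value did not pass without MGE WT repeat 1 (log2 -1.65 ± 0.27; adjusted p = 0.083) or MGE KO repeat 2 (-1.88 ± 0.31; adjusted p = 0.11), or in a fit to the 12 MGE arrays alone (same value; adjusted p = 0.22). Whether the probe set lies within the deleted sequence is not settled, so what is read in the KO does not tell whether any working Npas4 was left.

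The remaining KO signal was followed over time. In MGE KO it rose 3.17-fold by 1 h (2.18 to 4.59; log2 1.66 ± 0.25, adjusted p = 0.0052), and its change from 1 h to 6 h was -0.24 ± 0.25 (95% interval -0.77 to 0.30; adjusted p = 0.69). The 1 h rise did not pass without MGE KO repeat 1 at 1 h (1.49 ± 0.31; adjusted p = 0.11) or repeat 2 at 0 h (1.51 ± 0.31; adjusted p = 0.098), or in a fit to the MGE arrays alone (adjusted p = 0.12). In CTX KO the change at 1 h was 1.02 ± 0.25 (95% interval 0.49 to 1.56; adjusted p = 0.081), and the signal rose by 0.96 ± 0.25 from 1 h to 6 h (adjusted p = 0.0091), to 3.95-fold of its 0 h level (2.73 to 5.73; adjusted p = 2.8e-05). The CTX KO change at 1 h passed in a fit to the 12 CTX arrays alone (adjusted p = 0.0066) and when any 1 of the MGE WT arrays at 1 h or 6 h was left out (adjusted p = 0.025 and 0.041). The CTX KO change at 1 h also passed with the repeat number as a block in limma (adjusted p = 0.012). In intensity the KO rise was 3.08% of the WT rise at 1 h and 16.9% at 6 h in MGE, and 1.52% and 4.74% in CTX.

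The genotype difference in the 1 h response was log2 -4.19 ± 0.35 in MGE (95% interval -4.95 to -3.43; adjusted p = 1.0e-04) and -5.01 ± 0.35 in CTX (adjusted p = 9.3e-06), and in the 6 h response -3.94 ± 0.35 in CTX (adjusted p = 2.3e-04). In each of these 3 comparisons Npas4 was the only gene called at an adjusted p under 0.05, which is 0.00808% of the genes tested. The MGE value at 1 h did not pass in a fit to the 12 MGE arrays alone (same value; adjusted p = 0.21). In MGE the genotype difference in the 6 h response was -1.76 ± 0.35 (95% interval -2.52 to -1.0; adjusted p = 0.58), and it passed without MGE WT repeat 1 at 0 h (-1.69 ± 0.41; adjusted p = 0.031). The difference in the change from 1 h to 6 h was 2.43 ± 0.35 (1.67 to 3.19; adjusted p = 0.060) in MGE, the highest of all genes. It passed without either MGE WT array at 0 h (adjusted p = 0.041), without MGE WT repeat 1 at 6 h (2.80 ± 0.34; adjusted p = 0.018) and without MGE WT repeat 2 at 1 h (2.85 ± 0.32; adjusted p = 0.0064). In CTX the same difference was 1.07 ± 0.35 (0.32 to 1.83; adjusted p = 1.0). A different course from 1 h to 6 h in KO and WT was thus not called in either cell type in the main fit. With the repeat number as a block in limma, the MGE difference passed (adjusted p = 0.0058). Between the KO cultures the 6 h level was lower in MGE than in CTX by log2 -0.85 ± 0.25 (adjusted p = 0.011). That did not pass without MGE KO repeat 2 (-0.72 ± 0.31; adjusted p = 0.081) or CTX KO repeat 2 (-0.82 ± 0.32; adjusted p = 0.052) at 6 h. The genotype difference at 6 h was smaller in MGE than in CTX by 1.98 ± 0.35, with an adjusted p of 0.36 across genes. With the repeat number as a block in limma this difference passed (adjusted p = 0.030).

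Ordered by mean log2 intensity, the 12 groups ran from MGE KO at 0 h (5.51) through MGE WT (5.77), CTX KO (5.80) and CTX WT (5.87) at 0 h to CTX KO at 1 h (6.82), MGE KO at 6 h (6.94), MGE KO at 1 h (7.17), CTX KO at 6 h (7.79), MGE WT at 6 h (8.96), MGE WT at 1 h (11.62), CTX WT at 6 h (11.79) and CTX WT at 1 h (11.90). Of the 11 steps between neighbours, 4 had a 95% interval without 0. They were the steps up from CTX WT at 0 h to CTX KO at 1 h (0.96), from MGE KO at 1 h to CTX KO at 6 h (0.61), from CTX KO at 6 h to MGE WT at 6 h (1.17) and from MGE WT at 6 h to MGE WT at 1 h (2.67). The 4 groups at 0 h, the next 3 KO groups and the top 3 WT groups were thus each not separated from their neighbours beyond the spread.

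Of 21 other rapid activity-response genes, transcription factors and early effectors induced without new protein, 20 were tested and Klf2 was not. At 1 h 16 of the 20 rose in MGE WT, where 0.388% of all genes rose, and 17 in CTX WT, where 0.622% rose. Their medians were log2 3.18 and 4.31, against -0.01 for all genes in both. From 1 h to 6 h 13 of the 20 fell in MGE WT (8.75% of all genes) and 8 in CTX WT (21.6%), with medians of -1.70 and -0.57 against -0.04 and -0.09. The CTX WT count was 3 without CTX WT repeat 1 at 1 h or at 6 h and 5 without repeat 2 at 1 h. Atf3, a stress-response transcription factor, was the 1 gene of the list that rose from 1 h to 6 h in CTX WT (1.35 ± 0.43; 8.26% of all genes rose), and it did not pass without either CTX WT array at 1 h or repeat 2 at 6 h.

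The test that separated the cell types for Npas4, the difference in the change from 1 h to 6 h, called 6 of the 20 genes lower in MGE, where 1.87% of all genes were, and 0 higher (4.1% of all genes). The median was log2 -1.0 against 0.05 for all genes. Egr2, an immediate-early zinc finger factor, differed by -3.16 ± 0.38 (adjusted p = 6.1e-04). In MGE WT it read log2 12.10 and 12.10 at 1 h and 8.23 and 7.85 at 6 h, and in CTX WT 13.16 and 12.91, then 11.86 and 12.41. Fosb, an AP-1 subunit, differed by -2.62 ± 0.61 (adjusted p = 0.021), with MGE WT at 11.24 and 11.71, then 9.29 and 7.82, and CTX WT at 13.06 and 12.95, then 12.19 and 13.21. For both genes every MGE array at 6 h lay below every CTX array at 6 h. Maff (-2.08 ± 0.45), a small Maf factor, Egr1 (-1.80 ± 0.30) and Nr4a1 (-1.76 ± 0.32), an orphan nuclear receptor, were the others with Dusp1 (-0.78 ± 0.18), a phosphatase of MAP kinases. Fos, with a difference of -0.70 ± 0.51, and Arc, a synaptic plasticity gene, with -1.63 ± 0.48 (adjusted p = 0.063), did not pass. The count was 3 without MGE WT repeat 2 at 6 h or CTX WT repeat 2 at 1 h, and 10 without CTX WT repeat 1 at 6 h.

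**Figure D3:**
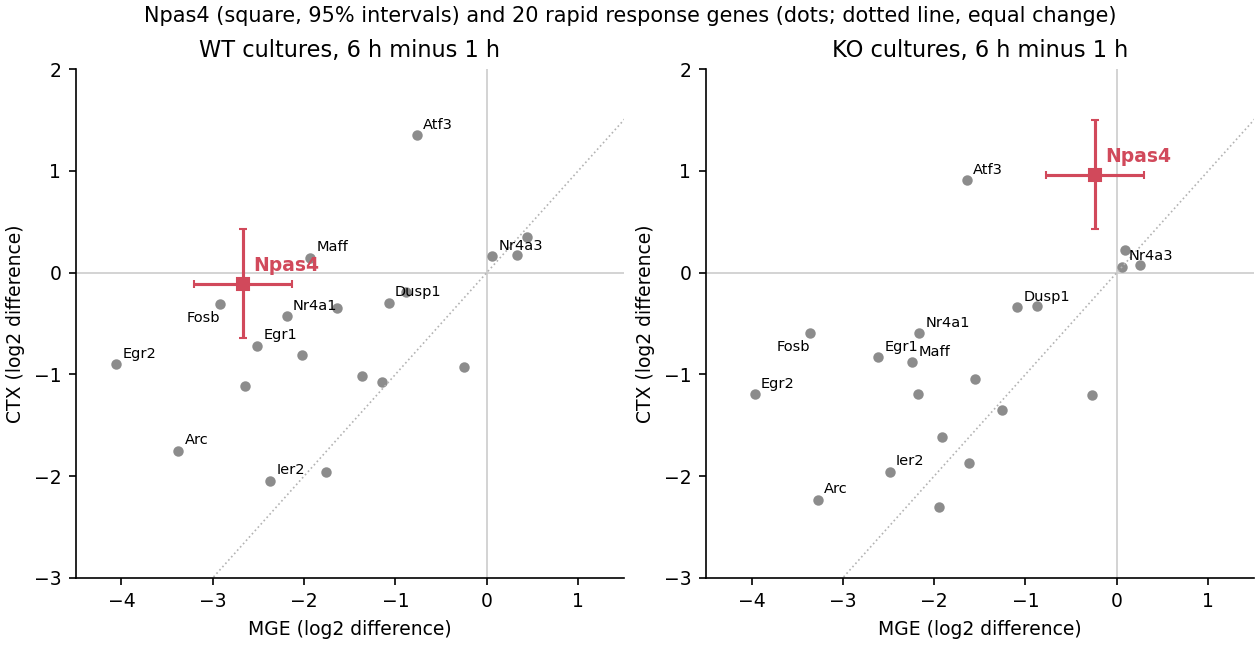
Change from 1 h to 6 h (log2) in MGE (horizontal axis) against CTX cultures (vertical axis) for WT (left) and KO (right). Grey dots are the 20 rapid response genes, some labelled, and the red square is Npas4 with 95% intervals: in WT it lies at -2.67 and -0.11, beside Fosb at -2.92 and -0.30, and in KO at -0.24 and 0.96, away from Fosb.

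The rapid genes responded in KO cultures as well. At 1 h 16 of the 20 rose in MGE KO (0.323% of all genes) and 16 in CTX KO (0.671%), with medians of log2 3.14 and 4.20. From 1 h to 6 h 14 fell in MGE KO (9.04%) and 10 in CTX KO (21.3%), the latter 6 without CTX KO repeat 1 at 1 h. KO minus WT called 0 of the 20 at 1 h (background 0.0242% in MGE and 0.00808% in CTX) and 0 at 6 h (0.0323% and 0.0485%). At an unadjusted p under 0.05 in limma, 0 passed at 1 h in either cell type, and 1 in MGE and 3 in CTX at 6 h. Their medians in KO minus WT were 0.13 and 0.07 at 1 h and 0.09 and -0.14 at 6 h. These comparisons share the arrays of each group with those above.

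**Figure D4:**
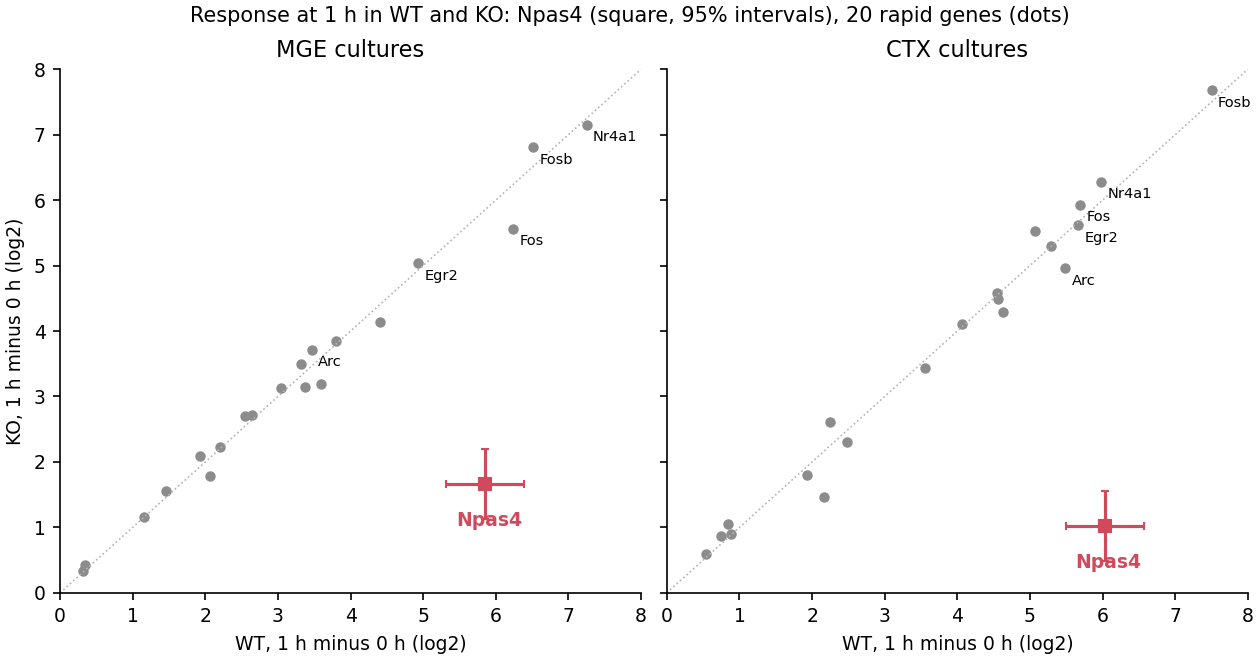
Response at 1 h (log2) in WT (horizontal axis) against KO (vertical axis) for MGE (left) and CTX cultures (right). The red square, Npas4 with 95% intervals, lies at 5.85 and 1.66 in MGE and 6.03 and 1.02 in CTX, while the 20 rapid response genes (grey dots) lie along the dotted line of equal response.

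The genes whose pattern was most like that of Npas4 were taken as those with the highest Pearson correlation of log2 values. Over the 12 WT arrays they were Fosb (r = 0.98), Nr4a1 (0.98), Maff (0.98), Fos (0.96), Junb (0.95), Egr2 (0.95), Ppp1r15a (0.93), Egr1 (0.93), Pim3 (0.92) and Gadd45g (0.92). All 12 points share the step from silenced to depolarized, so these values are descriptions. Of 11788 eligible genes, 41 had r of at least 0.8 over the WT arrays, and 0 reached it over all 24 arrays, where the KO arrays are included. The highest over 24 arrays were Atf3 (0.76), Ppp1r15a (0.74), Sertad1 (0.73), Maff (0.71), Gadd45g (0.71), Nr4a1 (0.70), Junb (0.70), Tmem198 (0.69), Fosb (0.69) and Usp36 (0.69), of which 6 were shared with the WT set. With Spearman correlation 6 of the WT set and 3 of the 24-array set stayed among the top 10. The genes running most opposite over the WT arrays were Zfp78 (-0.91), Zfp691 (-0.91), Wdr38 (-0.91), Zfp108 (-0.88) and Zfp113 (-0.88).

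In the KO arrays, which did not enter the choice of the WT set, 8 of its 10 genes rose at 1 h in MGE (0.323% of all genes) and 9 in CTX (0.671%), with medians of log2 3.67 and 4.94. Fosb, the nearest, rose by 6.81 in MGE KO and 7.68 in CTX KO where Npas4 changed by 1.66 and 1.02. Of the 10 genes 9 had a promoter in the RefSeq table, and 7 of those held TGACG in at least 1 of their promoters, as did 23.0% of the 27025 genes in that table. For comparison with Npas4, 40 bases around the first TGACG match are shown for 5 of them, on GRCm38.p6, 5′ to 3′, with each match on either strand in capitals.
Npas4, chr19:4990123-4990162, minus strand: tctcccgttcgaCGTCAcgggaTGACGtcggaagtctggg
Fosb, chr7:19310078-19310117, minus strand: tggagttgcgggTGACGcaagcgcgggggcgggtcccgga
Nr4a1, chr15:101266601-101266640, plus strand: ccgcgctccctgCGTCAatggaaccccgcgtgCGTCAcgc
Fos, chr12:85473749-85473788, plus strand: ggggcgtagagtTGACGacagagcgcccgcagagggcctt
Maff, chr15:79347479-79347518, plus strand: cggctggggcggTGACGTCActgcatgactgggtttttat
Ppp1r15a, chr7:45526253-45526292, minus strand: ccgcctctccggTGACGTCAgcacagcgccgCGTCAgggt
In these 40 bases Npas4 shows its pair of matches on opposite strands. Nr4a1 shows a pair there on the same strand, and Fosb and Fos show 1 each. Over the whole promoter Nr4a1 held 4 matches and Fos 2, while Npas4 held 2 and Fosb 1. Egr2, which is not shown, held 2 matches on opposite strands in each of its 3 promoters with TGACG. An opposite-strand pair was thus not limited to Npas4 among these genes. Maff, in 1 of its 3 promoters, and Ppp1r15a, a phosphatase regulator of the stress response, carry the whole palindrome TGACGTCA, which Npas4 does not.

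Genes known to act upstream of Npas4 were compared between WT cultures at 0 h, where 34.7% of all genes were higher in MGE and 29.5% lower. Of 5 tested calcium entry genes 4 were lower in MGE and 0 higher: Cacna2d1 (log2 -5.15 ± 0.28), an auxiliary calcium channel subunit, Cacna1c (-2.13 ± 0.27) and Cacna1d (-0.74 ± 0.19), which form L-type channels, and Grin2b (-0.28 ± 0.11), an NMDA receptor subunit. Of 11 relay genes 9 were lower and 2 higher, including Ppp3r1 (-1.99 ± 0.31), the regulatory subunit of calcineurin, Camk4 (-0.71 ± 0.15) and Rps6ka5 (1.00 ± 0.24), kinases that act on CREB. Of 17 factors known at activity-regulated promoters 10 were lower and 2 higher, among them Rest (-2.11 ± 0.49), a repressor of neuronal genes, Creb1 (-0.97 ± 0.23) and Crtc3 (1.48 ± 0.17), a CREB coactivator. The medians of the 3 lists were -0.93, -0.71 and -0.64, against 0.11 for all genes. Their size leans on MGE WT repeat 2, which was lower than repeat 1 in the mean log2 of each list. The means in repeats 1 and 2 were 9.09 and 8.60 for entry, 11.59 and 11.19 for relay, and 10.44 and 10.19 for the promoter factors. In CTX WT at 0 h they were 10.41 and 10.36, 11.92 and 12.04, and 10.81 and 10.82. Of these 17 factors Crem, which includes an inducible repressor of CREB sites, was the 1 that rose at 1 h, by 1.91 ± 0.28 in MGE WT (0.388% of all genes rose) and 2.20 ± 0.28 in CTX WT (0.622%).

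Of the 4 ARNT-class partners, 0 passed at 1 h in either WT culture, also at an unadjusted p under 0.05 in limma (background 0.574% in MGE and 0.864% in CTX). Arnt2, the main neuronal partner, was higher in MGE WT at 0 h (0.52), and Arnt (-1.05) and Arntl (-1.37) were lower.

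Genes reported in other studies as Npas4 targets were followed at 6 h, and 5 of 6 were tested (Syt10 was not). In MGE WT 3 rose (9.53% of all genes): Nptx2 (log2 2.55 ± 0.60), a synaptic pentraxin, Bdnf (1.77 ± 0.45), a neurotrophin, and Homer1 (0.64 ± 0.18), a synaptic scaffold. That count was 0 without MGE WT repeat 1 at 6 h and 5 without MGE WT repeat 1 at 0 h. In MGE KO 0 rose (4.84% of all genes), and 1 had an unadjusted p under 0.05 in limma. The count of 0 became 1 in a fit to the MGE arrays alone and 2 with the repeat number as a block. It was 2 genes of the 6 when every probe set was kept, those of Syt10 included. In CTX WT (10.5%) and CTX KO (11.3%) 2 rose, with Bdnf at 5.38 and 5.43 and Nptx2 at 4.95 and 4.39. KO minus WT at 6 h called 0 of the 5 (background 0.0323% in MGE and 0.0485% in CTX), with 1 in MGE and 0 in CTX at an unadjusted p under 0.05 in limma. Nptx2 read log2 10.10 and 9.84 in MGE WT and 8.88 and 8.01 in MGE KO, where the arrays did not overlap, a difference of -1.53 ± 0.60 (adjusted p = 1.0), and in CTX it was -0.80 ± 0.60. Bdnf read 7.70 and 7.65 in MGE WT and 6.90 and 6.87 in MGE KO, a difference of -0.79 ± 0.45, and -0.34 ± 0.45 in CTX.

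Besides Npas4, 2 genes were called in KO minus WT at 1 h in MGE and 0 in CTX. At 6 h 3 others were called in MGE and 5 in CTX. All were lower in KO, and they were named after their values were seen: Mup10 (log2 -1.71 ± 0.26) and 4933438K21Rik (-1.89 ± 0.23) in MGE at 1 h, Adam11 (-1.77 ± 0.23), Zfyve28 (-1.25 ± 0.15) and Osgin2 (-1.22 ± 0.14) in MGE at 6 h, and Cdt1 (-1.87 ± 0.27), Gli2 (-1.58 ± 0.19), Slc30a1 (-1.03 ± 0.16), Bid (-0.84 ± 0.12) and Hsd17b10 (-0.65 ± 0.11) in CTX at 6 h. With Npas4 these were 3 genes in MGE and 1 in CTX at 1 h, and 4 and 6 at 6 h. Leaving out MGE WT repeat 1 or MGE KO repeat 2 at 6 h left 0 in MGE at 6 h. In CTX at 6 h 129 were called without CTX WT repeat 1 at 6 h.

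The 10 tested genes on each side of Npas4 on chromosome 19, from Rbm4b to Pacs1 with Mrpl11 and Slc29a2 nearest, were read for comparison with the targeted gene. KO minus WT called 0 of these 20 genes at every time in both cell types, with 4 at an unadjusted p under 0.05 in limma in MGE at 0 h, 1 in CTX at 6 h and 0 in the other comparisons. Calls over all genes were 0% at 0 h, with 2598 genes in MGE and 49 in CTX at an unadjusted p under 0.05 in limma. At 1 h and 6 h they were 0.0242% and 0.0323% in MGE and 0.00808% and 0.0485% in CTX. At such shares 0 of 20 does not set these genes apart. The medians of the 20 were log2 -0.33, -0.17 and -0.12 at 0, 1 and 6 h in MGE and -0.01, -0.05 and -0.03 in CTX. Those of all genes were -0.01, -0.01 and -0.02 in MGE and -0.01, -0.03 and -0.02 in CTX. Without MGE WT repeat 1 at 0 h, 7 of the 20 were lower and 2 higher in MGE KO at 0 h, in a comparison that then called 3878 genes. The value farthest from 0 at 6 h was that of Rin1, a Ras effector, in CTX (-0.85 ± 0.44; adjusted p = 1.0). Mrpl11, a mitochondrial ribosomal protein and the nearest tested neighbour on one side, differed by 0.04 ± 0.08 in MGE and -0.01 ± 0.08 in CTX at 1 h.

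**Figure D5:**
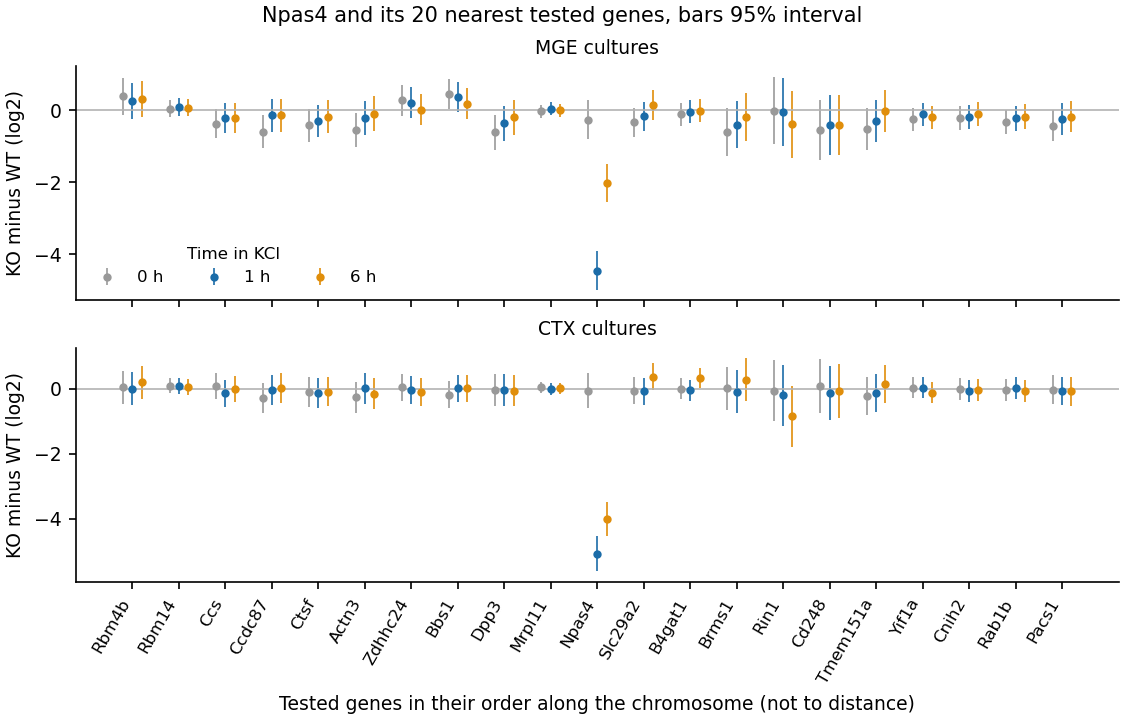
KO minus WT (vertical axis, log2, 95% intervals) for Npas4 and its 20 nearest tested genes in their order along the chromosome (horizontal axis, not to distance), in MGE (top) and CTX cultures (bottom). Npas4 alone lies far below 0, at -4.45 and -5.07 at 1 h (blue) and -2.02 and -4.00 at 6 h (orange).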

How the data were processed

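Per the labels' protocols, 100 ng of RNA went through NuGEN Ovation V2 amplification before hybridization to an Affymetrix mouse array. The authors deposited 1 linear intensity per probe set and array, and the submitters' processing notes name RMA, with no version. Such normalization hides a change common to most genes. Intensities were taken to log2, with no other scaling, and detection calls were not used. Each gene was its probe set of highest mean; the 12378 genes that exceeded the array median on 2 or more arrays were tested. Tests used limma 3.58.1 in R 4.3.3 on 12 group means over 24 arrays, eBayes, two-sided, with Benjamini-Hochberg adjustment over all tested genes and calls at an adjusted p under 0.05. All 39 comparisons of Npas4 were fitted. The number of arrays limits the precision. Alternatives were the repeat number as a block, normalization, filter, probe set, variance trend, array weights, arrays of 1 cell type and leaving out each array. Genes named were Npas4, the genes most like it, list members by a written rule and called genes. Members and lists were chosen with earlier results of these data known. Promoters are those of RefSeq (GRCm38.p6).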

Additional observations from a re-analysis of the deposited data

Results flagged for a closer look

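Several results were marked because the same contrast differed between groups in a test of the difference itself. For Npas4 (log2, limma, Benjamini-Hochberg adjusted p) the response differed between KO and WT by -4.19 (adjusted p = 1.0e-04) at 1 h in MGE, by -5.01 (adjusted p = 9.3e-06) at 1 h in CTX and by -3.94 (adjusted p = 2.3e-04) at 6 h in CTX. Between MGE and CTX WT cultures it differed by -2.73 (adjusted p = 4.3e-04) for 6 h against 0 h and by -2.56 (adjusted p = 0.0015) for 6 h against 1 h.

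Of the rapid response genes, 6 differed between MGE and CTX WT cultures in the change from 1 h to 6 h: Egr2 (-3.16), Fosb (-2.62), Maff (-2.08), Egr1 (-1.80), Nr4a1 (-1.76) and Dusp1 (-0.78). Groups of 2 arrays are too small to test for an outlying array.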

How the results depend on the processing

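Across the 39 Npas4 comparisons, 284 of 297 alternative values kept their direction and side of the threshold, 3 lost the call, 10 gained it and 0 reversed a call. With 1 array left out, 916 of 936 values kept their side of the threshold, 6 lost the call, 14 gained it and 0 reversed a call. Some of the 916 that were not called changed sign. The CTX WT change from 1 h to 6 h, -0.11 in the main fit, ranged from -0.24 to 0.02. In a fit to 1 cell type alone the MGE KO rise at 1 h (1.66), the MGE difference at 6 h (-2.02) and the MGE genotype by 1 h response (-4.19) lost their call, and the CTX KO change at 1 h (1.02) gained one. The MGE genotype difference in the change from 1 h to 6 h gained a call with cyclic loess (2.42), without the filter (2.43) and with array weights (2.43); array weights also did so for the CTX KO change at 1 h (1.02) and the KO cell type difference from 1 h to 6 h (-1.20).

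Labels share repeat numbers, but only 2 exist and they need not mark a shared culture. Same-numbered arrays deviated together (r above 0.1) in 13 of 15 pairs of groups in MGE (-0.23 to 0.857) and 15 of 15 in CTX (0.111 to 0.711). With the repeat as a block, calls were gained for the MGE genotype difference from 1 h to 6 h (2.43, adjusted p = 0.0058), the CTX KO change at 1 h (1.02, adjusted p = 0.012), the KO cell type difference from 1 h to 6 h (-1.20, adjusted p = 0.013) and the cell type by genotype difference at 6 h (1.98, adjusted p = 0.030); no other Npas4 call changed. The block raised the genes called in KO minus WT at 6 h from 6 to 38 in CTX and from 4 to 10 in MGE, from 1 to 2 in CTX at 1 h and from 0 to 2 in CTX at 0 h, and the targets that rose in MGE KO from 0 to 2.

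With 1 array left out, values whose call changed ranged from 1.49 to 1.83 (MGE KO rise at 1 h), -2.39 to -1.65 (MGE difference at 6 h), -2.13 to -1.39 and 2.01 to 2.85 (MGE genotype differences for 6 h against 0 h and 1 h), 0.99 to 1.05 (CTX KO change at 1 h), -0.70 to 0.14 (MGE minus CTX WT at 1 h), -0.98 to -0.72 (MGE minus CTX KO at 6 h) and -1.37 to -1.03 (KO cell type difference from 1 h to 6 h).

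Counts of called genes moved more than Npas4 did. With every probe set kept, the count is of probe sets out of 45101, not of the 12378 genes, so its size cannot be compared. The other settings named below are all alternatives to the main fit, the one with every probe set included. That one gave the values 332, 742, 299, 707, 3563, 8458, 1572 and 37, which are upper ends of the ranges below. Over the other settings, and then over arrays left out, the genes called went from 71 to 16 to 332 and 21 to 1813 (MGE WT at 1 h), from 107 to 58 to 742 and 38 to 140 (CTX WT at 1 h), from 55 to 50 to 299 and 20 to 73 (MGE KO at 1 h), from 136 to 66 to 707 and 47 to 180 (CTX KO at 1 h), from 1589 to 1418 to 3563 and 485 to 2038 (MGE WT, 6 h against 1 h), from 3691 to 2550 to 8458 and 2107 to 4170 (CTX WT, 6 h against 1 h) and from 739 to 467 to 1572 and 241 to 1494 (WT cell type difference from 1 h to 6 h). In KO minus WT they went from 3 to 1 to 37 and 1 to 3 (MGE at 1 h), from 4 to 2 to 40 and 0 to 17 (MGE at 6 h) and from 6 to 1 to 38 and 2 to 129 (CTX at 6 h). With array weights the rapid genes that fell in CTX WT numbered 4, not 8, and the targets that rose in MGE WT 0, not 3. With only 2 arrays a group, levels below the array median not shown above background, and a knockout allele not described, folds against 0 h and KO signal are approximate.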
